A study of Mus musculus with 6 samples.

Results

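Aryl hydrocarbon receptor (AhR) signalling was followed through 6 genes in the hippocampus of ovariectomised mice. Ahr, Arnt and Arnt2 encode the receptor and its partners, and Tiparp, Ahrr and Cyp1b1 are targets and feedback regulators. The members were taken by gene symbol from the 32066 named rows of the deposited table, where all 6 have a row, and all 6 are among the 18629 rows that passed the filter on low counts. The members were selected on the log2 fold changes and CPM of OVX+RJ against OVX, seen in an earlier look at the same 6 libraries, so the members' values in that contrast are a description, given without a test. The OVX+RJ group was 3 female wild type C57BL/6J mice that lost both ovaries at 8 weeks of age and then ate freely of a diet with 1% royal jelly, a honeybee secretion, until the hippocampus was taken at 17 weeks. The OVX group was 3 females of the same strain, genotype and age with the same surgery, on a control diet. Ovariectomy, which removes the main source of circulating estrogen, was shared by both groups, and a sham-operated group is not analysed here. The labels call the libraries biological replicates and give no intake of royal jelly per animal.

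The AhR is a ligand-activated transcription factor of the bHLH-PAS family. It waits in the cytosol with the HSP90 chaperone, moves to the nucleus when it binds ligands such as dioxins, plant compounds of the diet or breakdown products of tryptophan, and pairs there with ARNT or with ARNT2, the form typical of neurons. The pair binds a short DNA core, GCGTG, and switches on genes of the cytochrome P450 family along with its own brakes. TIPARP attaches single ADP-ribose units to the AhR and lowers its activity, and the repressor AHRR competes with the AhR for ARNT. CYP1B1 oxidises polycyclic hydrocarbons and also hydroxylates estradiol.

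The promoters of the 3 target and feedback genes are shown because the AhR core motif is sought in them. Each is the 250 bases before the annotated start, from RefSeq on GRCm38.p6, 5′ to 3′ on the strand of the gene, and capitals mark GCGTG or its reverse complement CACGC. The Tiparp window is chr3:65528197-65528446 on the plus strand, the Ahrr window chr13:74292332-74292581 on the minus strand and the Cyp1b1 window chr17:79715062-79715311 on the minus strand.
Tiparp: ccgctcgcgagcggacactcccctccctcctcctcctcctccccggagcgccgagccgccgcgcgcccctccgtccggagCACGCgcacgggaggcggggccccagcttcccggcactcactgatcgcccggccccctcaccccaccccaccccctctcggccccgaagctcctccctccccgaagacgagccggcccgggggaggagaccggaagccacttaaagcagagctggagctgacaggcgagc
Ahrr: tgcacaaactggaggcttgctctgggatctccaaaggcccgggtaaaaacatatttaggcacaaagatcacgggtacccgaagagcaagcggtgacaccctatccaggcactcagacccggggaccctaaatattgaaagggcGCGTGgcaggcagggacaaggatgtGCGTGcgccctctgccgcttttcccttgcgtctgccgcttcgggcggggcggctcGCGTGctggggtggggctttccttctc
Cyp1b1: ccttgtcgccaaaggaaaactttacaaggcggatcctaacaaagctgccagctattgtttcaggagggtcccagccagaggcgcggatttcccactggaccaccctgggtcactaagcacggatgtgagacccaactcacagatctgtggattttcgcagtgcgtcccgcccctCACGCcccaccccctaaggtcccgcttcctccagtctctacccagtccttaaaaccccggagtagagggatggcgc
Tiparp held 1 match, on the reverse strand at -170 to -166 from the start. Ahrr held 3, all on the forward strand, at -107 to -103, -82 to -78 and -27 to -23. Cyp1b1 held 1, on the reverse strand at -76 to -72. A promoter entry was found for 5 of the 6 members, all but Ahr. In the full windows, which add 50 bases after the start, Arnt held 1 match and Arnt2 held 0, and the counts of the other 3 stayed the same. Among all 32851 such windows, 32.4% held at least 1 match on either strand and 3.91% held 3 or more. A single match was thus common, and the 3 of Ahrr were less so. The longer form TNGCGTG, which contains the core, was found once in the 5 windows, in Ahrr, and is in 5.07% of all windows. TGACGTCA, the cyclic AMP response element, was found once, in Arnt at -239 to -232, and is in 1.79% of all windows. The E-box CACGTG and the AP-1 site TGANTCA, also sought on both strands, were in 0 of the 5, against 7.15% and 7.81% of all windows.

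Poly(A) RNA of the hippocampus was sequenced, and the table gives between 34718592.5 and 58163779.0 expected counts per library over the named rows. The library OVX+RJ 1 stood apart, with a mean correlation across genes of 0.983 with the other libraries against 0.986 to 0.987 for the rest, and it alone lay far out on the first principal component, which held 28.7% of the variance. OVX 1 lay apart on the second component, which held 20.2%. The members' fold changes are therefore also given with libraries left out. All 10 neuronal markers of the hippocampus that were looked up were present, among them Prox1 of the dentate gyrus, at 82.1 CPM (counts scaled to the library total) or more in every library. In bulk tissue, fewer cells of a type and less RNA per cell cannot be told apart.

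Per unit of length, Arnt2 was the most abundant member. Its level was 36.0 ± 2.01 CPM per kilobase of merged exons (SD over 6 libraries). Tiparp at 4.97 ± 0.990 and Arnt at 4.23 ± 0.442 CPM per kilobase came next, and their ranges overlapped. Ahr stood at 2.02 ± 0.170, Cyp1b1 at 0.493 ± 0.0520 and Ahrr at 0.137 ± 0.0340 CPM per kilobase, and the ranges of these did not overlap with each other or with those above. With the longest annotated transcript as the length, Arnt passed Tiparp, at 7.83 against 5.17 CPM per kilobase, while the rest of the order stayed. Within each library the level of Arnt2 per kilobase of merged exons was 7.19 to 10.6 times that of Arnt. The level of Ahr was 10.3 to 20.5 times that of its repressor Ahrr. Both ratios are smaller with the longest transcript as the length. The means are then 44.5 against 7.83 CPM per kilobase for Arnt2 and Arnt, and 2.25 against 0.255 for Ahr and Ahrr. The neuronal partner was thus the main ARNT form in this tissue by mRNA, and the repressor was the scarcest member.

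**Figure D1:**
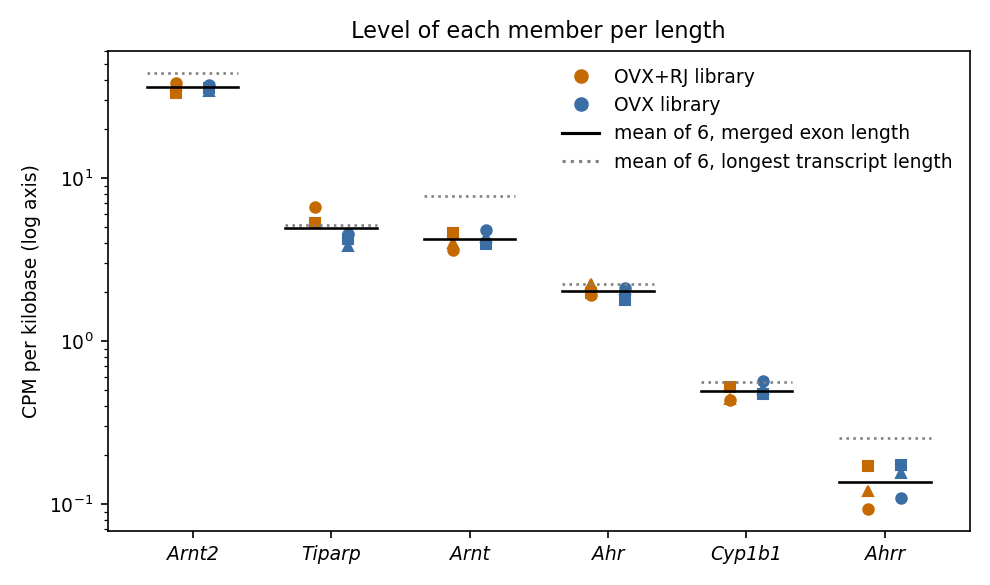
Level of each member in CPM per kilobase of exon on a log axis, with OVX+RJ libraries left of OVX libraries (circles, squares and triangles for libraries 1, 2 and 3, by merged exons) and lines for the mean of 6 libraries under each length. Arnt2, at a mean of 36.0 CPM per kilobase of merged exons, lies above all others, and Ahrr, at 0.137, lies lowest.

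The receptor and its partners had overlapping levels in the groups. Ahr stood at 11.8, 12.1 and 13.9 CPM in OVX+RJ 1, 2 and 3, against 13.1, 10.95 and 12.96 CPM in OVX 1, 2 and 3. OVX+RJ 3 was the highest library and OVX 2 the lowest, with the other 4 between them. The means were 12.6 ± 1.11 CPM for OVX+RJ and 12.3 ± 1.20 CPM for OVX (SD over 3 libraries in each group), and the log2 fold change was 0.044 (SE 0.12). The direction was not fixed, as leaving out 1 library at a time gave values from -0.037 without OVX 2 to 0.088 without OVX 3, with 0.078 without OVX+RJ 1. Ahr shares 127 exon bases with Gm48236 on the other strand, a row with 2 counts or fewer per library.

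Arnt, the general partner that HIF factors also use, was at 29.0, 37.1 and 32.2 CPM in OVX+RJ, against 38.3, 31.7 and 34.8 CPM in OVX. The lowest library was OVX+RJ 1 and the highest OVX 1. Its log2 fold change was -0.086 (SE 0.10), with -0.012 without OVX+RJ 1, -0.022 without OVX 1 and -0.17 without OVX+RJ 2. Arnt2, the neuronal partner, was at 295, 256 and 286 CPM in OVX+RJ, against 287, 274 and 263 CPM in OVX. Both its highest and its lowest library were OVX+RJ ones. The log2 fold change was 0.033 (SE 0.069), with -0.021 without OVX+RJ 1 and 0.10 without OVX+RJ 2. An antisense row over 214 of its exon bases, Gm30873, held 16 counts or fewer in each library.

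The balance of Arnt2 to Arnt varied most within OVX+RJ. Their ratio per kilobase was 10.6, 7.19 and 9.25 in OVX+RJ 1, 2 and 3, against 7.80, 9.01 and 7.86 in OVX 1, 2 and 3. The groups overlapped, and OVX+RJ 1 had the most Arnt2 and the least Arnt.

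**Figure D2:**
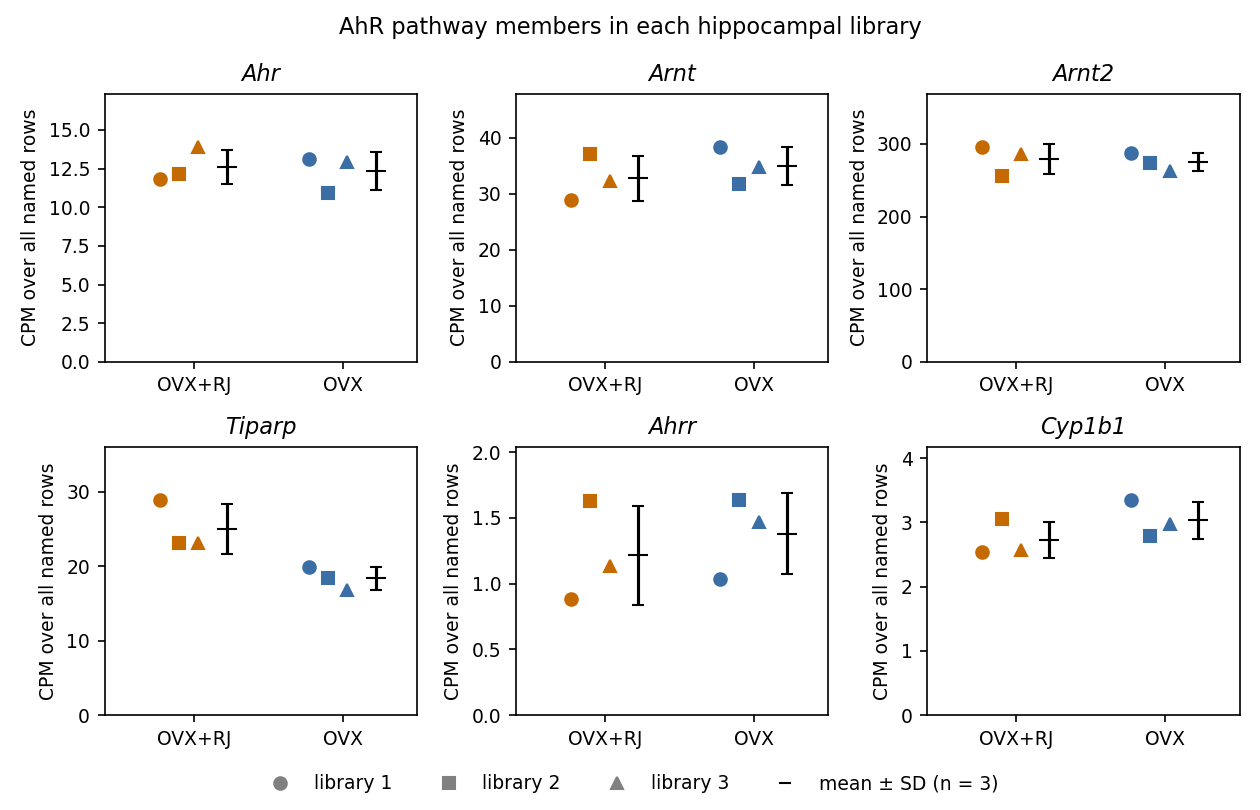
CPM of the 6 members over all named rows, with OVX+RJ left and OVX right in each panel, a point for each library and the mean ± SD of 3 libraries. Tiparp is the member whose groups do not overlap, at 23.1 to 28.8 CPM in OVX+RJ, against 16.8 to 19.9 CPM in OVX.

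Of the targets and feedback genes, Tiparp was the member with separate groups. It stood at 28.8, 23.1 and 23.1 CPM in OVX+RJ 1, 2 and 3, against 19.9, 18.4 and 16.8 CPM in OVX 1, 2 and 3. Every OVX+RJ library was above every OVX library, and OVX+RJ 1 was the highest. The means were 25.0 ± 3.31 CPM for OVX+RJ and 18.3 ± 1.57 CPM for OVX (SD over 3 libraries in each group), a ratio of 1.36 and a log2 fold change of 0.45 (SE 0.12). The exact Poisson 95% interval, which covers counting error only, was 21.5 to 24.7 CPM in the lowest OVX+RJ library and 18.4 to 21.4 CPM in the highest OVX library. These intervals lay next to each other without overlap. They leave out the spread between mice and are no test of Tiparp, which was selected on this contrast. Without OVX+RJ 1 the log2 fold change was 0.33, and it ran up to 0.51 with another library left out.

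A row on the opposite strand, 4931440P22Rik, shares 223 exon bases with Tiparp, which is 5.12% of the exons of Tiparp. It held 25 to 61 counts per library, against 683 to 1109 for Tiparp. It stood at 0.779, 0.838 and 0.831 CPM in OVX+RJ, against 0.720, 1.05 and 1.01 CPM in OVX, so its groups overlapped and it was far below Tiparp in each library.

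Ahrr, the repressor, was the scarcest member and the one with the widest relative spread. Its counts were 34, 64 and 41 in OVX+RJ 1, 2 and 3, against 36, 95 and 60 in OVX 1, 2 and 3. In CPM these were 0.883, 1.63 and 1.14 in OVX+RJ and 1.04, 1.63 and 1.47 in OVX. The groups overlapped, and library 1 was the lowest of its group in both. The log2 fold change was -0.19 (SE 0.31), with 0.0033 without OVX+RJ 1, -0.40 without OVX+RJ 2 and -0.38 without OVX 1. The coefficient of variation was 31.1% in OVX+RJ and 22.3% in OVX, where counting alone gives 15.1% and 13.3%.

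Cyp1b1, the P450 enzyme, had 98, 120 and 93 counts in OVX+RJ and 116, 162 and 121 counts in OVX. This was 2.55, 3.05 and 2.58 CPM in OVX+RJ, against 3.34, 2.79 and 2.97 CPM in OVX. The groups overlapped, with OVX+RJ 2 above 2 of the 3 OVX libraries. The log2 fold change was -0.14 (SE 0.19), with -0.22 without OVX+RJ 2 and -0.076 without OVX 1 as the ends of its range with 1 library left out. Its coefficient of variation of 10.3% in OVX+RJ and 9.34% in OVX was close to what counting alone gives, 9.87% and 8.74%. For Tiparp the same measure was 13.2% in OVX+RJ and 8.56% in OVX, above the 3.26% and 3.56% of counting. With 3 libraries per group these shares are rough.

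Tiparp and Cyp1b1, both counted as AhR targets, had fold changes on opposite sides of 0. The ratio of Tiparp to Cyp1b1 per kilobase was 15.2, 10.2 and 12.0 in OVX+RJ 1, 2 and 3, against 7.98, 8.84 and 7.56 in OVX 1, 2 and 3. The ratio of Tiparp to Ahr per kilobase was 3.45, 2.69 and 2.35 in OVX+RJ and 2.15, 2.37 and 1.83 in OVX. The first ratio did not overlap between groups, and the second overlapped at OVX+RJ 3 and OVX 2. Both ratios hold the Tiparp values on which it was selected, so no difference is read from them. Of the 6 members, 1 was higher in OVX+RJ with no overlap, where 4.53% of the tested rows were, and 0 were lower with no overlap, where 5.95% were. Since the members were proposed from this contrast, nothing is read from that count, nor from the 10.5% of rows without overlap in either direction.

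Over the whole table the quasi-likelihood test of edgeR, after Benjamini-Hochberg adjustment at 0.05, called 0 of the 18629 rows (0%), and 4.05% had an unadjusted p under 0.05. DESeq2, which gave an adjusted p for 16458 rows, called 10 of them higher (0.0608%) and 3 lower (0.0182%). No member was among them, but the members were selected on this contrast, so this is no test of them.

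**Figure D3:**
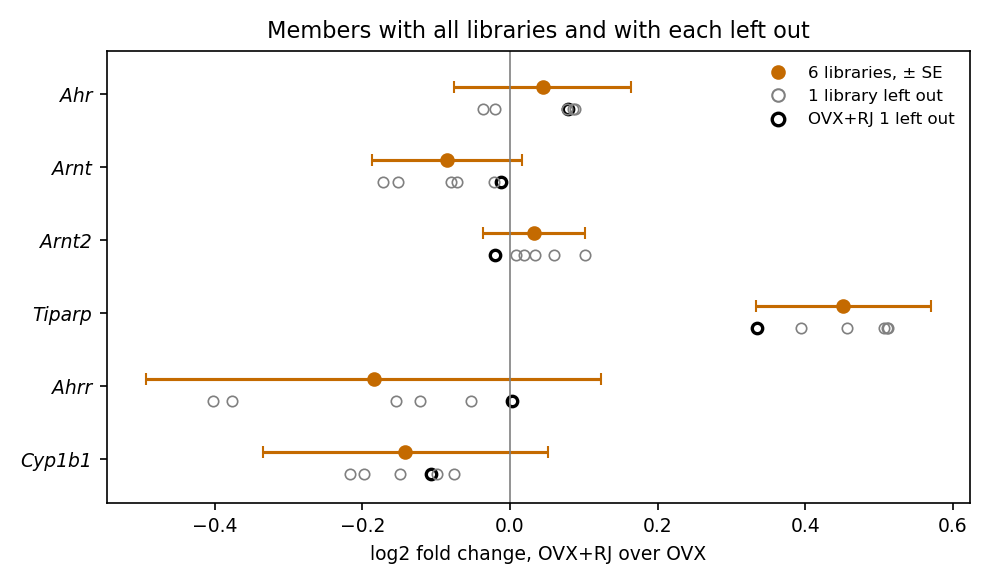
Log2 fold change of each member, OVX+RJ over OVX, filled with bars for the SE from 6 libraries, open grey with 1 library left out and open black without OVX+RJ 1. Tiparp stays between 0.33 and 0.51, while Ahr, Arnt2 and Ahrr have values on both sides of 0.

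Tiparp is also known as a gene that stimulation can induce quickly, so 8 activity-induced genes of neurons were set beside it, a list chosen with their values known. The log2 fold change was above 0 for all 8, at a median of 0.58 against -0.0040 over all tested rows. In edgeR's test 0 of the 8 passed, while DESeq2 called 6. In edgeR 6 had an unadjusted p under 0.05 and were higher, where 2.14% of all tested rows were higher and 1.91% lower. Because the genes were picked with these values in view, nothing is read from these counts or from the median. Junb, an AP-1 subunit, was at 65.8, 51.6 and 61.6 CPM in OVX+RJ, against 36.4, 34.8 and 36.7 CPM in OVX, with a log2 fold change of 0.73 (edgeR adjusted p 0.121). Fos, its AP-1 partner, was at 22.1, 12.1 and 13.8 CPM in OVX+RJ, against 5.90, 6.52 and 6.80 CPM in OVX, with a log2 fold change of 1.28 (edgeR adjusted p 0.235). In both genes the groups were apart and OVX+RJ 2 was the lowest of its group.

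The remaining 6 activity-induced genes were of the same sign. Egr2, a zinc finger factor, had the largest log2 fold change of the list, 1.76, with means of 5.45 ± 1.57 CPM for OVX+RJ and 1.55 ± 0.263 CPM for OVX (SD over 3 libraries in each group). The nuclear receptor Nr4a1, the zinc finger factor Egr1, the synaptic gene Arc and the AP-1 subunit Fosb had log2 fold changes of 0.62, 0.44, 0.55 and 0.33. Without OVX+RJ 1 the log2 fold change of Fosb was 0.13 and that of Fos 1.01. Npas4, a neuronal bHLH-PAS factor that itself pairs with ARNT2, was at 20.4, 6.20 and 9.09 CPM in OVX+RJ, against 9.85, 6.93 and 9.18 CPM in OVX. Its groups overlapped, and its log2 fold change of 0.30 was -0.19 without OVX+RJ 1. The summed level of the 8 genes was 370 to 445 CPM in OVX+RJ, against 270 to 292 CPM in OVX, without overlap. Nothing is read from that either, as the genes were chosen with their values known. The part of these genes in the level of Tiparp was not tested.

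**Figure D4:**
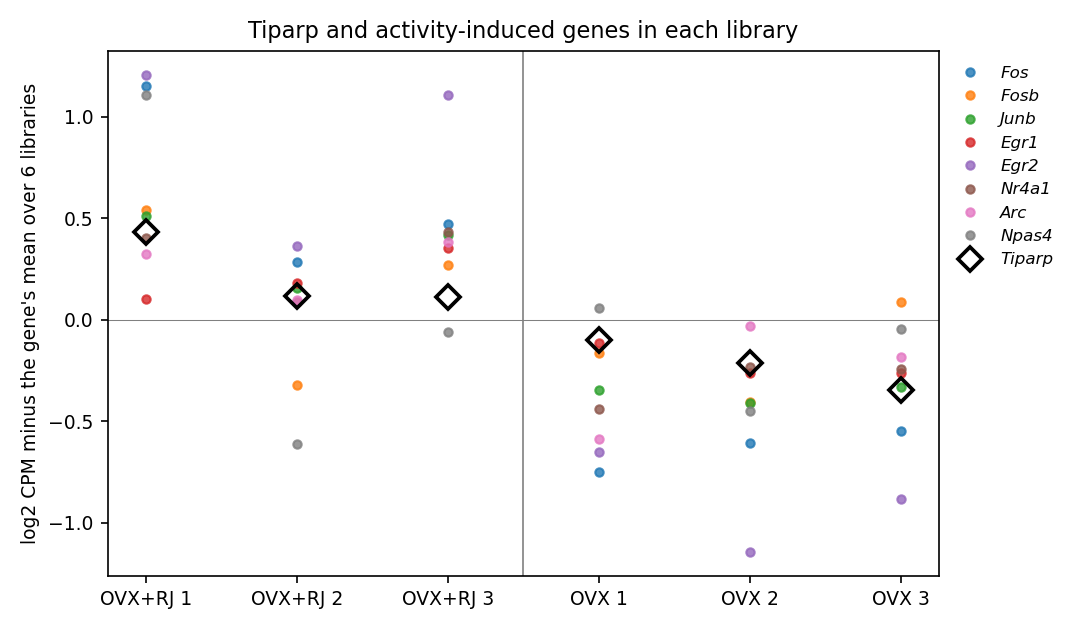
Log2 CPM minus each gene's mean over the 6 libraries, for Tiparp (diamonds) and 8 activity-induced genes (coloured points), with the OVX+RJ libraries left of the OVX libraries. Tiparp is above its mean in the 3 OVX+RJ libraries and below it in the 3 OVX libraries.

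Among the 5 rows most like Tiparp over the 6 libraries were Cxadr, Efna1, Cwc25 and Cry1, by the root mean square difference of centred log2 CPM among 14716 candidate rows, at differences of 0.068 to 0.079. Cxadr, a cell adhesion protein, was at 31.6, 25.7 and 27.2 CPM in OVX+RJ, against 24.5, 22.4 and 20.7 CPM in OVX. Cry1, a repressor of the circadian clock, was at 18.0, 16.7 and 14.7 CPM in OVX+RJ, against 12.2, 12.1 and 11.2 CPM in OVX. In both, as in Tiparp, OVX+RJ 1 was the highest library and OVX 3 the lowest. Such likeness largely follows from choosing rows by their nearness to Tiparp. With a library left out, 1 to 3 of these 5 rows came up again, so the choice of neighbours is loose. The row most like Ahr was Med12, that most like Arnt was Xpnpep3, that most like Arnt2 was Alg2, that most like Ahrr was Gbp5 and that most like Cyp1b1 was Magi1.

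Other AhR targets were mostly low. Of 13 xenobiotic target genes 10 passed the filter on low counts, 4 with a positive and 6 with a negative log2 fold change, at a median of -0.059, and 0 passed edgeR's test in either direction, with 1 at an unadjusted p under 0.05. Cyp1a1, the classic AhR target, had 10, 5 and 0 counts in OVX+RJ and 10, 0 and 12 counts in OVX, and Aldh3a1, an aldehyde dehydrogenase, had 0, 27 and 18 counts in OVX+RJ and 26, 15 and 0 counts in OVX. Cyp1a2, Ugt1a6b and Gsta1 were under the filter. At these counts no difference was detectable. Nqo1, a quinone reductase that NRF2 also controls, was at 3.07, 3.73 and 3.27 CPM in OVX+RJ, against 2.48, 2.56 and 3.61 CPM in OVX, with overlapping groups. Nfe2l2, which encodes NRF2, had a log2 fold change of -0.13, and Ugt1a6a one of -0.51, with counts that are uncertain because Ugt1a genes share exons. With a library left out the log2 fold change ran from 0.14 to 0.42 for Nqo1, from -0.21 to -0.042 for Nfe2l2 and from -0.89 to -0.22 for Ugt1a6a.

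Xdh, xanthine dehydrogenase, had the lowest p of these targets. It was at 3.25, 4.14 and 3.85 CPM in OVX+RJ, against 8.50, 7.43 and 5.10 CPM in OVX. Every OVX+RJ library was below every OVX library. Its log2 fold change was -0.86 (SE 0.20). In edgeR's test the adjusted p was 0.986 and the unadjusted p 0.00106, so Xdh did not pass. As the list was chosen with earlier results known and Xdh named for its low p, nothing is read from the unadjusted p.

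The chaperones that hold the AhR in the cytosol differed little. All 5 genes were tested, 2 with a positive and 3 with a negative log2 fold change, at a median of -0.013, and 0 passed edgeR's test, with 0 at an unadjusted p under 0.05. Hsp90aa1 and Hsp90ab1, the cytosolic HSP90 forms, had log2 fold changes of 0.074 and 0.011, and Src, a kinase of the complex, one of -0.029. Without OVX+RJ 1 the log2 fold change of Hsp90ab1 was -0.018, on the other side of 0.

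Of 15 other bHLH-PAS factors and partners 13 were tested, 7 with a positive and 6 with a negative log2 fold change. Their median was 0.023, and 0 passed edgeR's test. At an unadjusted p under 0.05, 1 was higher and 1 lower, where 2.14% and 1.91% of all tested rows were. The joint count of 2 fell to 1 under some other settings, such as upper quartile scaling factors, and without OVX 2 or OVX 3. Sim2 was under the filter and Sim1 is not analysed here. Hif3a, an HIF subunit that can dampen the others, had the lowest p, at 4.88, 4.47 and 2.24 CPM in OVX+RJ against 8.38, 6.21 and 7.29 CPM in OVX. Every OVX+RJ library was below every OVX library. Its log2 fold change was -0.96 (SE 0.27), and ran from -1.18 to -0.61 with a library left out. In edgeR's test the adjusted p was 0.986 and the unadjusted p 0.00516. This list too was chosen with earlier results known and Hif3a named for its low p, so nothing is read from the unadjusted p. Hif1a, the oxygen-regulated subunit that pairs with ARNT, was at 94.9, 97.6 and 90.0 CPM in OVX+RJ, against 89.6, 78.3 and 87.1 CPM in OVX, with a log2 fold change of 0.16. Its relative Epas1 and the coactivator Ncoa2 had log2 fold changes of -0.12 and -0.095, and of -0.17 and -0.059 without OVX+RJ 1.

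Tiparp was next set beside its PARP relatives and the enzymes that remove ADP-ribose. All 20 genes of this joint list were tested, 10 with a positive and 10 with a negative log2 fold change, at a median of -0.019, and 0 passed, with 0 at an unadjusted p under 0.05 in edgeR's test. Their log2 fold changes ran from -0.33 to 0.14, all below the 0.45 of Tiparp. Tiparp was selected on that value, so nothing is read from the gap. Parp6 was at 89.4, 92.3 and 84.6 CPM in OVX+RJ, against 97.2, 94.3 and 95.8 CPM in OVX, with no overlap and a log2 fold change of -0.099. Parp1, a sensor of DNA breaks, Parp3 and Parp14 had log2 fold changes of -0.095, -0.33 and -0.29, with overlapping groups. Without OVX+RJ 1 these were -0.0012, -0.32 and -0.084, so the values of Parp1 and Parp14 rested largely on that library.

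Enzymes that break down tryptophan, a source of AhR ligands, were mostly scarce. Of 13 genes 5 were tested, 2 with a positive and 3 with a negative log2 fold change, at a median of -0.18, and 0 passed edgeR's test, with 0 at an unadjusted p under 0.05. DESeq2 likewise called 0 genes of these enzymes, of the ADP-ribose enzymes, of the bHLH-PAS factors, of the chaperones and of the xenobiotic targets. Ido1, Kmo, Haao, Aadat, Il4i1, Qprt and Acmsd were under the filter, and Kynu is not analysed here. Tdo2, tryptophan dioxygenase, was at 8.00, 9.47 and 4.93 CPM in OVX+RJ, against 6.68, 8.20 and 10.2 CPM in OVX. Its groups overlapped, and Ido2, Afmid and Kyat1 had log2 fold changes of -0.37, -0.35 and 0.079, with overlapping groups as well. Without OVX+RJ 1 these were -0.53, 0.071 and -0.0056, so Afmid and Kyat1 changed direction, and Tdo2 ran from -0.37 to 0.098 with a library left out.

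**Figure D5:**
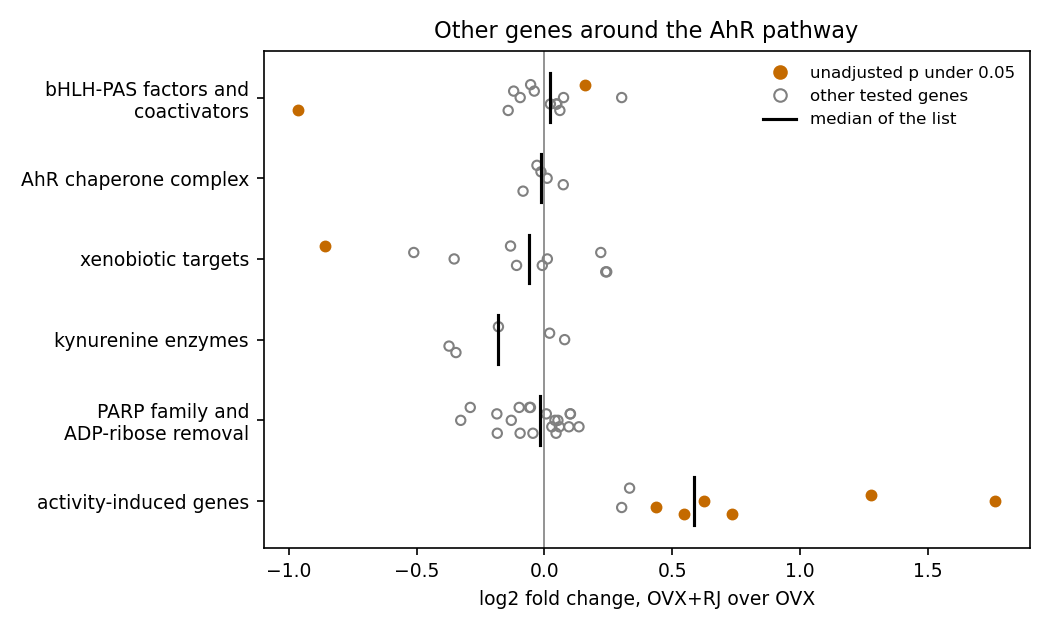
Log2 fold changes, OVX+RJ over OVX, of the tested genes of 6 lists around the AhR pathway, filled where edgeR's unadjusted p is under 0.05, with a line at the median of each list. The activity-induced genes have a median of 0.58, and the other 5 medians lie between -0.18 and 0.023. All 6 lists were chosen with earlier results of these data known.

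Cyp1b1 is known from vessel-associated cells in brain and Xdh from endothelium, so marker sums stand beside their negative fold changes. The 8 endothelial markers, 6 of them with a negative log2 fold change, summed to 198 to 228 CPM in OVX+RJ, against 243 to 254 CPM in OVX. The 7 pericyte and smooth muscle markers, 6 of them negative, summed to 156 to 164 CPM in OVX+RJ, against 175 to 184 CPM in OVX. Neither sum overlapped between groups, and no marker of either list was at 0 in a library. In edgeR's test 0 passed, with 2 of each list lower at an unadjusted p under 0.05, where 1.91% of all tested rows were. Abundant genes weigh most in such sums. Slc2a1 had means of 58.7 CPM for OVX+RJ and 75.6 CPM for OVX, and Rgs5, at 92.9 and 103 CPM, had overlapping groups. Cdh5, Slco1a4 and Pdgfrb had positive log2 fold changes of 0.050, 0.11 and 0.17. The part of endothelium, pericytes and smooth muscle in the values of Cyp1b1 and Xdh was not tested.

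Other cell types were set beside Tiparp and the other members in the same way. The summed level overlapped between groups for microglia, at 288 to 304 CPM in OVX+RJ, against 295 to 307 CPM in OVX with 3 of 7 markers positive, and for the leptomeninges, at 162 to 179 CPM in OVX+RJ, against 168 to 187 CPM in OVX with 3 of 7 positive. Astrocyte markers, 1 of 6 positive, summed to 1380 to 1450 CPM in OVX+RJ, against 1470 to 1510 CPM in OVX, without overlap. Of these markers taken singly, 0 had groups without overlap and 0 had an unadjusted p under 0.05 in edgeR's test. Slc1a3, at means of 603 CPM for OVX+RJ and 623 CPM for OVX, weighed most in the sum. The sums of oligodendrocyte markers, 5 of 5 positive, overlapped. Choroid plexus markers, 5 of 6 positive, summed to 26.7 to 54.1 CPM in OVX+RJ, against 25.2 to 35.8 CPM in OVX, with Otx2 at 0 in OVX 1. That sum was lowest in library 1 of each group, where Tiparp was highest. In edgeR's test 0 markers of these lists passed. At an unadjusted p under 0.05, 3 choroid plexus markers were higher, where 2.14% of all tested rows were.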

How the data were processed

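The deposited table holds expected counts, nearly all whole numbers, with 1 value per gene symbol and library. Per the submitters' processing notes the tools were HISAT2 2.2.1, StringTie 2.2.1, fastp 0.23.4 and bcl2fastq 2.19 and the build was GRCm39, with no role given. Libraries were made with a directional kit, per the labels' protocols, but the sources used here do not give the counting tool, its strand setting or its annotation. Overlapping and antisense genes may therefore share counts. Values that were not whole, at 51 rows, were rounded for the tests. The 1 row without a gene name was left out, at 4 to 6 counts per library.

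CPM are over all named rows. The groups were compared in R 4.3.3 with edgeR 4.0.16 (filterByExpr, TMM, glmQLFit and glmQLFTest, Benjamini-Hochberg adjustment over all tested rows, threshold 0.05), with DESeq2 1.42.0 as an alternative. Log2 fold changes and SEs are from limma 3.58.1 on TMM-scaled log2 CPM with a prior count of 2. P-values measure the spread between these libraries only. Lengths were matched by symbol to GENCODE M21 (GRCm38), and promoters from RefSeq on GRCm38.p6; no coordinates were converted between builds. The members and all lists were chosen with earlier results of these data known. The rule named the 6 members, up to 4 genes per list with the lowest p, genes under the filter or at 0, the activity-induced genes and the 5 rows nearest to each member in pattern. Marker genes and rows that overlap a member were named outside this rule, after their values were seen. Some genes that the rule names are not reported here.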

Additional observations from a re-analysis of the deposited data

How the results depend on the processing

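The 6 members' log2 fold changes moved by less than 1 SD between replicates under other settings of scaling, filter, test and prior count. The same held with each of the 6 libraries left out. With 3 libraries per group that outcome is nearly fixed by construction, so no stability is read from it. Tiparp ran from 0.44 to 0.46 over the settings and from 0.33 to 0.51 over the left-out libraries, and Ahr, Arnt2 and Ahrr changed sign with some library left out. Counts of rows called over the whole table were less stable, and the cause was not tested. DESeq2 called 10 rows higher and 3 lower, with 6 of the activity-induced genes called, and robust empirical Bayes called 2 higher and 1 lower, with 2 activity-induced genes called, against 0 in the edgeR test. Leaving out 1 library gave 0 to 7 rows higher, 0 to 1 lower and 0 to 4 activity-induced genes called, the most without OVX+RJ 2. No member was called in any of these, which is no test of them, as they were selected on this contrast. The groups share replicate numbers, and deviations of same-numbered libraries correlated across genes at 0.046, -0.0024 and 0.0031. Pairs with different numbers ran from -0.044 to 0.045. Such values cannot settle whether the mice were paired, and the main fit used the group only. With the replicate block 1 row was called higher and 0 lower. In this balanced design the block leaves the members' fold changes as they are by construction, and so does robust empirical Bayes. The median of the tryptophan enzymes ran from -0.26 to 0.012 with a library left out and was -0.076 with a mean of at least 50 counts required. The longest transcript as the length, an alternative chosen after seeing the data, exchanged Tiparp and Arnt in order of level. Depth limits Ahrr, with 34 to 95 counts per library.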
